A study of Rattus norvegicus with 9 samples.

Results

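The genes described here are 10 that encode the chains of fibrillar collagen and the proteins that fold, modify, crosslink or accompany them: Col1a1, Col1a2, Col3a1, Col5a1, Col5a2, Serpinh1, Lox, P4ha1, Sparc and Fn1. They were chosen by name, and every probe set whose platform annotation gives one of these symbols alone was taken. This gave 17 of the 15866 probe sets on the array that are not controls, and 14 of the 17, covering all 10 genes, were bright enough to be tested. RNA came from whole kidney of 4 rats labelled case and 5 rats labelled control, 1 array each, in a series on low blood pressure. The labels used here give no treatment, strain, sex or age for either group, so nothing more is said of what separated them. Each gene is read by 1 or more probe sets, each of which gives 1 signal from several short probes. Signals of different probe sets are not on a common scale, so levels are compared between animals and never between genes.

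Fibrillar collagens are rope-like proteins of connective tissue, built from procollagen chains that wind into a triple helix inside the cell. Prolyl 4-hydroxylase, whose catalytic subunit P4ha1 encodes, hydroxylates prolines so that the helix is stable, and the chaperone encoded by Serpinh1, also called HSP47, binds procollagen in the endoplasmic reticulum. Outside the cell the trimmed molecules assemble into fibrils that lysyl oxidase, the product of Lox, prepares for crosslinking. In the kidney these genes are expressed mainly by fibroblasts, pericytes and mesangial cells, and they are widely used as measures of scarring.

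All 9 arrays carried kidney RNA by their markers, since 9 of 9 proximal tubule genes were bright enough to be tested. The summed signal of those 9 genes was 12256 to 16508 in case and 12385 to 17010 in control kidneys. Case animals 7 and 8 stood apart in the ratio of the 3' to the 5' probe set of actin, a measure of how far the RNA or its copy was shortened. It was 3.05 and 3.11 in these 2 animals, 1.52 and 1.57 in the other case animals, and 1.12 to 2.0 in controls, with the lowest ratio in control animal 10. The same ratio for Gapdh was 2.09, 1.55, 2.39 and 1.93 in case animals 3, 5, 7 and 8, and 1.56 to 1.79 in control animals. By this ratio case animal 3 lay above every control too, as did case animals 7 and 8. Members are therefore also given with the log2 actin ratio as a covariate and without animals 7 and 8.

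Most of the collagen and processing genes had lower signals in case kidneys, and the difference was not past the test for any of them. Of the 14 tested probe sets, 11 had a log2 difference (case minus control, on log2 of signal plus 5.03) below 0, where 54% of all 9519 tested probe sets did. Their median difference was -0.29, against -0.02 over all tested probe sets. By limma with Benjamini-Hochberg adjustment 0 of the 14 passed a threshold of 0.05, and 0% of all tested did, and the smallest adjusted p among them was 0.569. An unadjusted p under 0.05 was found for 4 of the 14, where 6.69% of all tested probe sets had one. Of these, both Col1a1 probe sets and Serpinh1 were lower in case kidneys (3 of 14, where 3.81% of all tested were), and Lox was higher (1 of 14, where 2.88% were). The case and control signals did not overlap for 1 probe set, of Col1a1, and 0.903% of all tested probe sets were separated in that direction. In the other direction 0 of the 14 and 0.977% of all tested were separated. Whole kidney RNA does not tell fewer matrix-producing cells from less RNA per cell.

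Col1a1 encodes the alpha 1 chain of type I collagen, the main fibrillar collagen of scar and capsule. Its probe set 1370864_at had signals of 78.1, 93.9, 83.8 and 80.8 in case animals 3, 5, 7 and 8, against 107.3, 108.6, 139.8, 150.4 and 113.6 in control animals 4, 9, 10, 11 and 12. Every case animal lay below every control, and the case animals lay close together. The log2 difference was -0.52 ± 0.14 (SE), with a limma adjusted p of 0.569. The exact permutation p was 0.00794, the smallest that 4 animals against 5 allow (2-sided, unadjusted). The difference was -0.46 with the actin ratio as a covariate and -0.49 without case animals 7 and 8.

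The second Col1a1 probe set, 1388116_at, was derived from the same deposited sequence and spread far more. It had signals of 87.3, 220.5, 99.4 and 55.5 in case animals 3, 5, 7 and 8, against 147.6, 161.9, 336.1, 293.6 and 191.7 in control animals 4, 9, 10, 11 and 12. Case animal 5 lay within the control range and the other case animals below it. Signals averaged 116 ± 72.3 in the case group and 226 ± 83.9 in the control group (SD, n = 4 and n = 5), a log2 difference of -1.04 ± 0.34 (SE, limma adjusted p = 0.644). Without case animal 5 the difference was -1.39 with a limma adjusted p of 0.0461, past the threshold, in a comparison where 0.41% of all tested probe sets passed as lower. With the actin ratio as a covariate it was -0.66, and without case animals 7 and 8 it was -0.61. By their recorded times the arrays fell into 3 sets, taken here as fluidics runs. Within run 1 (3 case animals, 1 control) this probe set differed by -0.24, within run 2 (1 case animal, 3 controls) by -2.09. The tighter probe set differed by -0.32 within run 1 and by -0.67 within run 2.

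**Figure D1:**
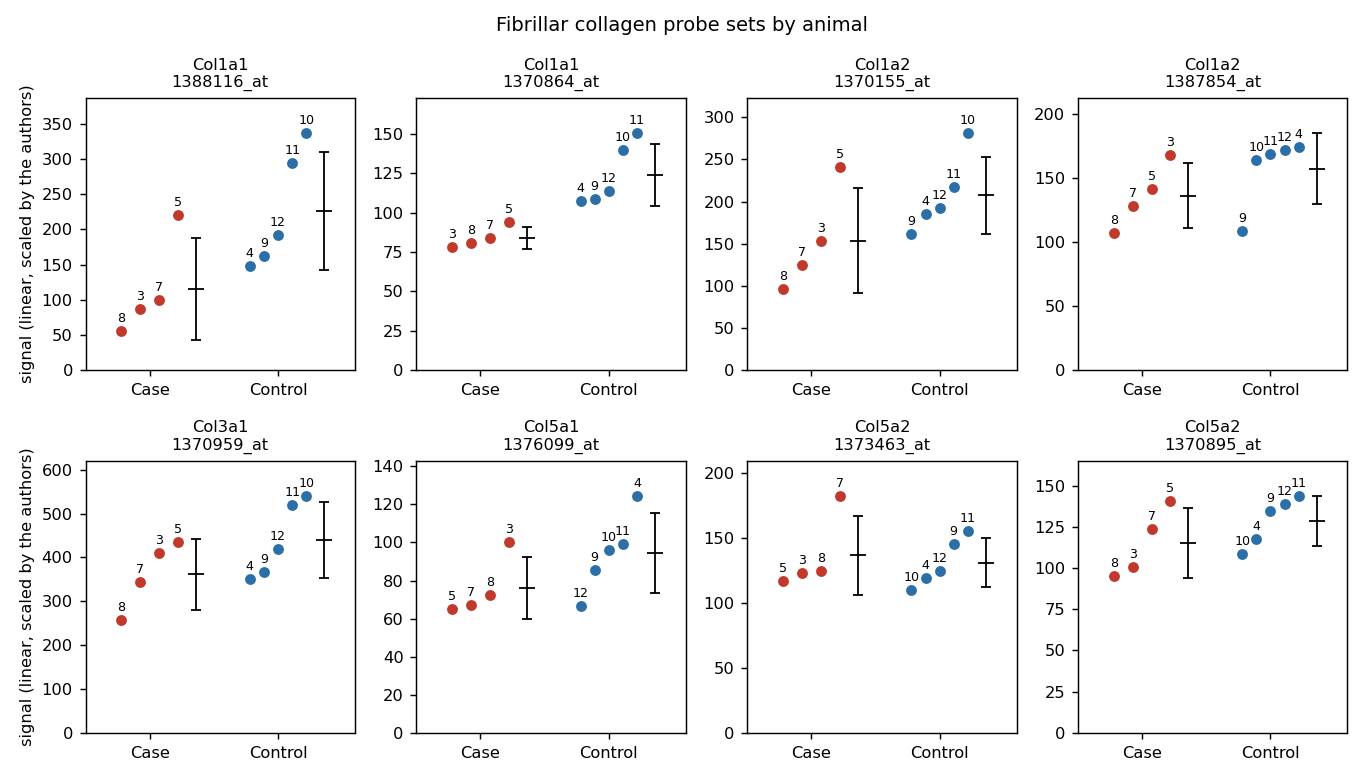
Signal (linear scale, as scaled by the authors) of the 8 tested fibrillar collagen probe sets in each kidney, with case animals left of control animals. Points carry the animal's number, the bars beside them give mean and SD, and the groups are fully apart for Col1a1 1370864_at alone among these 8.

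Col1a2 encodes the alpha 2 chain that joins 2 alpha 1 chains in type I collagen. Its brighter probe set, 1370155_at, had signals of 153.4, 241.2, 124.4 and 96.2 in case animals 3, 5, 7 and 8, against 185.7, 161.3, 280.8, 217.7 and 192.2 in control animals 4, 9, 10, 11 and 12. The order of the animals was close to that of the wider Col1a1 probe set, with case animal 8 lowest and control animal 10 highest in both. The log2 difference was -0.47 ± 0.23 (SE, limma adjusted p = 0.775). Adjusted for the actin ratio it was -0.15, and with case animals 7 and 8 left out -0.08. Run 1 alone gave -0.15 and run 2 alone -1.12, and without case animal 8 the difference was -0.28. The other Col1a2 probe set, 1387854_at, differed by -0.20 ± 0.17, and its case signals of 107.3 to 168.3 overlapped control signals of 108.8 to 174. Adjusted for the actin ratio it differed by -0.06, and with case animals 7 and 8 left out by -0.0070.

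Col3a1, whose product forms type III collagen, a partner of type I in soft tissue, had the same order at its extremes. Signals at 1370959_at were 410, 436.2, 343.2 and 256.4 in case animals 3, 5, 7 and 8, against 351, 367.1, 539.8, 520.3 and 419.7 in control animals 4, 9, 10, 11 and 12. Case animals 3 and 5 lay inside the control range, and the log2 difference was -0.29 ± 0.18 (SE, limma adjusted p = 0.821). With the actin ratio as a covariate the difference was -0.08, and without case animals 7 and 8 it was -0.03. Without case animal 8 alone it was -0.13. It was 0.17 within run 1 and -0.86 within run 2, so its sign was not the same in both runs.

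Type V collagen, encoded by Col5a1 and Col5a2, sits in the core of type I fibrils and limits their width. Col5a1 at 1376099_at had signals of 100.1, 65, 66.9 and 72.2 in case animals 3, 5, 7 and 8, against 124.3, 85.5, 95.9, 99.1 and 66.6 in control animals 4, 9, 10, 11 and 12. The groups overlapped, and the log2 difference was -0.29 ± 0.18 (SE, limma adjusted p = 0.823). Case animal 5 was lowest and control animal 4 highest. Adjusted for the actin ratio the difference was -0.19, with case animals 7 and 8 left out -0.18, and without control animal 4 also -0.18. With the fluidics run as a block, in which the lone control of run 3 adds nothing, Col5a1 differed by -0.51, and run 1 alone gave -0.68, run 2 alone -0.35. A second Col5a1 probe set, 1369955_at, lay below the brightness filter and was not tested, with signals of 22.3 to 38.6 in case and 17.9 to 31 in control animals.

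Col5a2 gave differences near 0. At 1373463_at its signals were 117.3 to 182.5 in case and 109.9 to 155.5 in control animals, a log2 difference of 0.05 ± 0.16 (SE). The 95% interval of that difference ran from -0.29 to 0.39. The sign changed to -0.09 with the actin ratio as a covariate and to -0.11 without case animals 7 and 8. At 1370895_at, from another deposited sequence, signals were 95.3 to 140.8 in case and 108.4 to 143.5 in control animals, a difference of -0.16 ± 0.15. Here the values were -0.17 with the actin ratio and -0.10 without case animals 7 and 8. Case animal 7, which was low for type I and III collagen, had the highest Col5a2 signal of all 9 animals at 1373463_at, 182.5.

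Serpinh1 encodes the collagen chaperone HSP47, and its gene is known to be induced by heat shock factor as well as with collagen. At 1371310_s_at its signals were 120.7, 211.8, 131 and 126.7 in case animals 3, 5, 7 and 8, against 243, 270.4, 748.4, 204.4 and 180.6 in control animals 4, 9, 10, 11 and 12. Control animal 10 stood far above all others, and case animal 5 was the one case animal inside the control range. Signals averaged 148 ± 43.0 in the case group and 329 ± 237 in the control group (SD, n = 4 and n = 5), a log2 difference of -0.96 ± 0.34 (SE, limma adjusted p = 0.644). Without control animal 10 the difference was -0.61 ± 0.19, smaller in size and with a smaller error (limma adjusted p = 0.851). Adjusted for the actin ratio it was -0.60, and with case animals 7 and 8 left out -0.81. Run 1 alone gave -0.68 and run 2 alone -1.42. The other Serpinh1 probe set, 1369009_at, was near the bottom of the array, with signals of 1.7 to 3.1 in case and 1.4 to 5.7 in control animals, and was not tested.

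Control animal 10 was high for several other heat shock genes too, but not for all. Hsph1, a co-chaperone of HSP70, had signals of 208.1 to 260.3 in case animals, against 1149.9 in control animal 10 and 228.8 to 440.8 in the other controls. Of the 12 tested genes on a list of heat shock proteins and chaperones, 8 had their highest signal in this animal. The share of all tested probe sets that were highest in it was not counted. Hspa1a had 141.8 in control animal 10 and 164.5 in control animal 4. Dnajb1 had 119 in control animal 10, the lowest control signal. Whether a heat shock response had a part in the Serpinh1 signal of control animal 10 was not tested. Control animal 10 was also highest for Col1a1 at 1388116_at, Col1a2 at 1370155_at, Col3a1 and P4ha1, and had the lowest actin ratio. The sequence just before the Serpinh1 start is shown as a description only. It is the 150 bases before the start used in the RefSeq promoter table, at chr1:163062977-163063126 on the minus strand of GRCr8, 5' to 3', inside the RefSeq span of the gene, which extends further upstream. Capitals mark a minimal heat shock element, GAANNTTC, found 30 bases before that start.
Serpinh1: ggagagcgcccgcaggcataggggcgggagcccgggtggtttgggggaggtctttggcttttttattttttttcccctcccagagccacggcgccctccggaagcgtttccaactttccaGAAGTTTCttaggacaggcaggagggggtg
Promoter windows of 300 bases (250 before the start, 50 after) were matched for 6 of the 10 genes, Col1a2, Col5a1, Col5a2, Serpinh1, P4ha1 and Sparc. GAANNTTC, which reads the same on both strands, was found in 1 of the 6, Serpinh1, and in 8.59% of 33469 windows. ACGTG, the core of a hypoxia response element, was found on either strand in 1 of the 6, P4ha1, and in 19.3% of all windows. CCAAT was found on either strand in 1 of the 6, Col1a2, and in 37.5% of all windows. These matches describe letters in a window and say nothing of binding.

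P4ha1 encodes the catalytic subunit of prolyl 4-hydroxylase, and it is known as a hypoxia-induced gene. Its probe set 1370954_at had signals of 99.4, 117.4, 70.6 and 60.2 in case animals 3, 5, 7 and 8, against 96.3, 120.2, 137.7, 121.3 and 94.5 in control animals 4, 9, 10, 11 and 12. The 2 lowest signals were those of case animals 7 and 8, while case animals 3 and 5 lay among the controls. The log2 difference was -0.40 ± 0.19 (SE, limma adjusted p = 0.761). Adjusted for the actin ratio it was -0.16, and with case animals 7 and 8 left out -0.06. Run 1 alone gave -0.04 and run 2 alone -1.01, and without case animal 8 the difference was -0.25.

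Lox was the one processing gene that was higher in case kidneys at an unadjusted p under 0.05. Its probe set 1368171_at had signals of 85.8, 40.2, 68.8 and 47 in case animals 3, 5, 7 and 8, against 42.2, 37.7, 48.2, 31.5 and 36.8 in control animals 4, 9, 10, 11 and 12. Case animals 3 and 7 lay above every control, and animals 5 and 8 within the control range. The log2 difference was 0.52 ± 0.21 (SE, limma adjusted p = 0.681), and the pseudocount makes it an underestimate at signals this dim. Adjusted for the actin ratio it was 0.58, and with case animals 7 and 8 left out 0.54. Run 1 alone gave 0.51 and run 2 alone 0.25. With the Gapdh ratio in place of the actin ratio it was 0.20, with the run as a block 0.38 and without case animal 3 0.34, and in these 3 settings its unadjusted p was above 0.05. Leaving out case animals 7 and 8 together, case animal 7, or control animal 9, 11 or 12 also put that p above 0.05. A second Lox probe set, 1368172_a_at, lay below the filter and did not separate the groups, with signals of 14 to 24.2 in case and 13.9 to 23.2 in control animals.

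**Figure D2:**
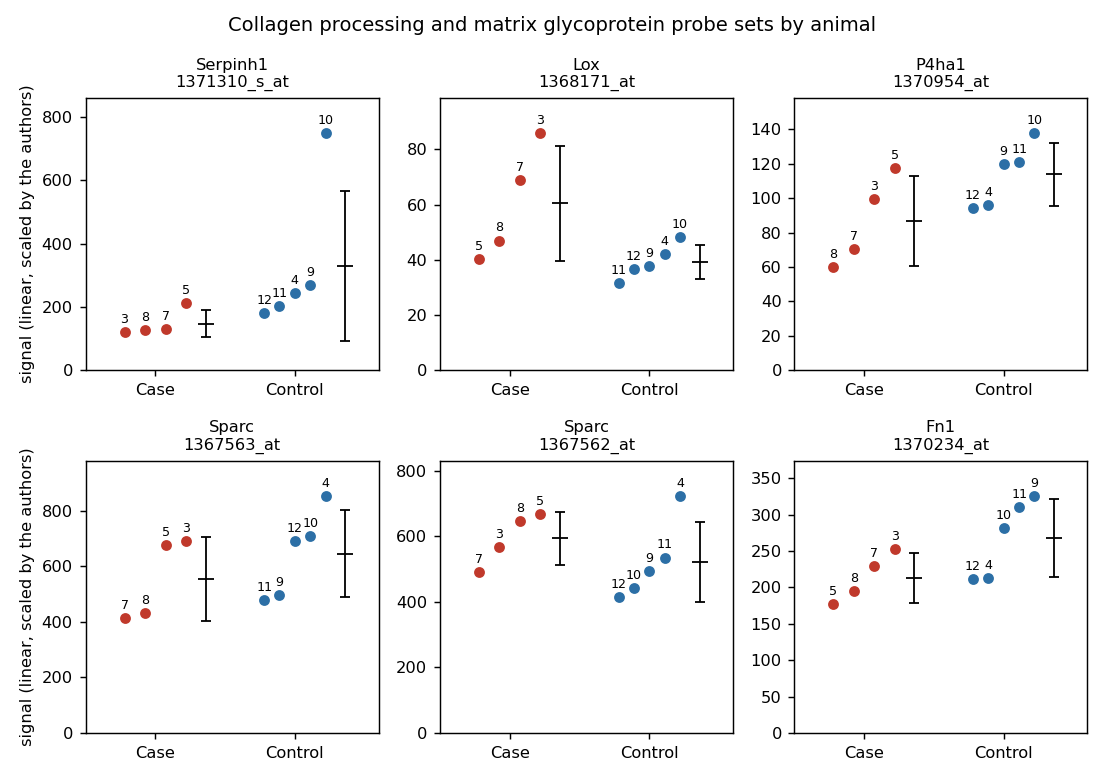
Signal (linear scale, as scaled by the authors) of the 6 tested probe sets of Serpinh1, Lox, P4ha1, Sparc and Fn1 in each kidney, with case animals left of control animals. Points carry the animal's number, the bars beside them give mean and SD, and control animal 10 stands alone at 748.4 for Serpinh1.

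Sparc encodes osteonectin, a secreted glycoprotein that binds collagen and calcium, and its 2 probe sets, from the same deposited sequence, differed in sign. At 1367563_at signals were 690, 675.7, 414.6 and 429.7 in case animals 3, 5, 7 and 8, against 851.9, 497.2, 708.9, 478.9 and 688.9 in control animals 4, 9, 10, 11 and 12. At 1367562_at they were 568.9, 668.6, 491.3 and 648.2 in the same case animals, against 722.9, 493.6, 443, 535.5 and 414.7 in the same controls. Both overlapped between the groups. The log2 differences were -0.23 ± 0.21 and 0.20 ± 0.16 (SE). With the actin ratio as a covariate they were 0.01 and 0.23, and without case animals 7 and 8 they were 0.12 and 0.27. With the run as a block the first probe set gave -0.46, and it gave -0.55 in run 1 and -0.36 in run 2. The second gave 0.03 with the block, -0.34 in run 1 and 0.40 in run 2, and by 0.45 with the Gapdh ratio as a covariate.

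Fn1 encodes fibronectin, the glycoprotein on which collagen fibrils are laid down. At 1370234_at its signals were 252.9, 176.5, 229 and 194.7 in case animals 3, 5, 7 and 8, against 213.3, 325.3, 281.1, 310.4 and 211 in control animals 4, 9, 10, 11 and 12. Control animals 9, 10 and 11 lay above every case animal and animals 4 and 12 among them. The log2 difference was -0.31 ± 0.16 (SE, limma adjusted p = 0.784). It was -0.31 both with the actin ratio as a covariate and without case animals 7 and 8, and 0.02 within run 1 and -0.63 within run 2.

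Over the 14 tested probe sets the low and high signals gathered in a few animals. The same counts over all tested probe sets were not made, so they are not a trait particular to these genes. Case animals 7 and 8 also had the lowest array medians, 45.2 and 46.8. Case animal 8 had the lowest signal of the 9 animals in 6 of the 14, and was among the lowest 3 in 10. Case animal 7 was also among the lowest 3 in 10, case animal 3 in 5 and case animal 5 in 3. Control animal 10 was highest in 5 of the 14 and control animal 4 in 4, and control animals 10 and 11 were among the highest 3 in 9 and 10. Case animal 5 was lowest in 2 and among the highest 3 in 5, and case animal 3 was lowest in 2 and among the highest 3 in 3.

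**Figure D3:**
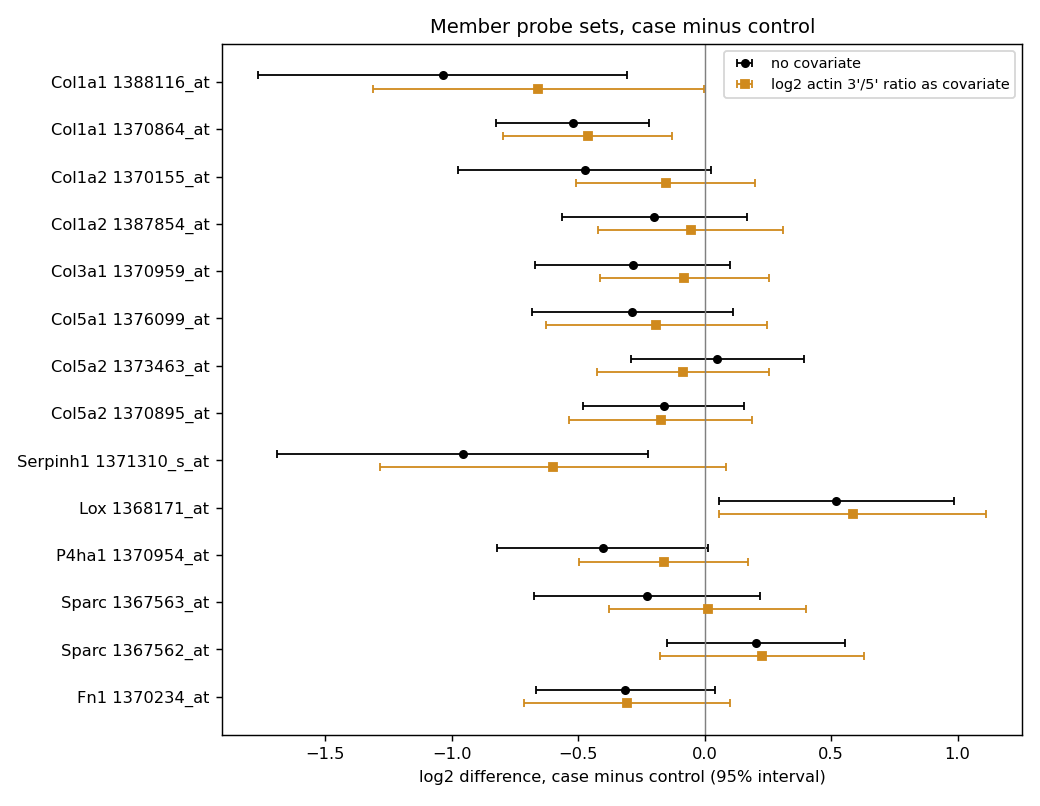
Log2 difference, case minus control, of the 14 tested probe sets with 95% intervals from limma, without a covariate (black circles) and with the log2 actin 3'/5' ratio of each array as a covariate (orange squares). Both intervals lie below 0 for the 2 Col1a1 probe sets and above 0 for Lox, while the Serpinh1 interval reaches above 0 with the covariate.

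With the actin ratio as a covariate 10 of the 14 differences were nearer to 0, and their median was -0.16. An unadjusted p under 0.05 was then found for 3 of the 14, both Col1a1 probe sets and Lox, where 4.69% of all tested probe sets had one. Col1a1 at 1388116_at and Serpinh1 moved farthest on the log2 scale, followed by Col1a2 at 1370155_at, P4ha1, Sparc at 1367563_at and Col3a1. Col1a1 at 1370864_at, Lox and Fn1 moved by less than 0.1. Without case animals 7 and 8 the median was -0.09 and 1 of the 14, Col1a1 at 1370864_at, had an unadjusted p under 0.05, where 2.99% of all tested did. With the Gapdh ratio as a covariate the median was -0.21 and 2 of the 14 had an unadjusted p under 0.05, where 2.88% of all tested did. These were Col1a1 at 1370864_at, lower at -0.46, and Sparc at 1367562_at, higher at 0.45. Col1a1 at 1388116_at, at -0.70, Serpinh1, at -0.81, and Lox, at 0.20, were not among them. The comparison without case animals 7 and 8, with 2 case animals left, has less precision. It also keeps case animal 3, whose Gapdh ratio of 2.09 lay above every control. The 3' to 5' ratio and the group cannot be fully told apart, since both high actin ratios belonged to case animals. Every Gapdh ratio above the control range also belonged to a case animal.

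**Figure D4:**
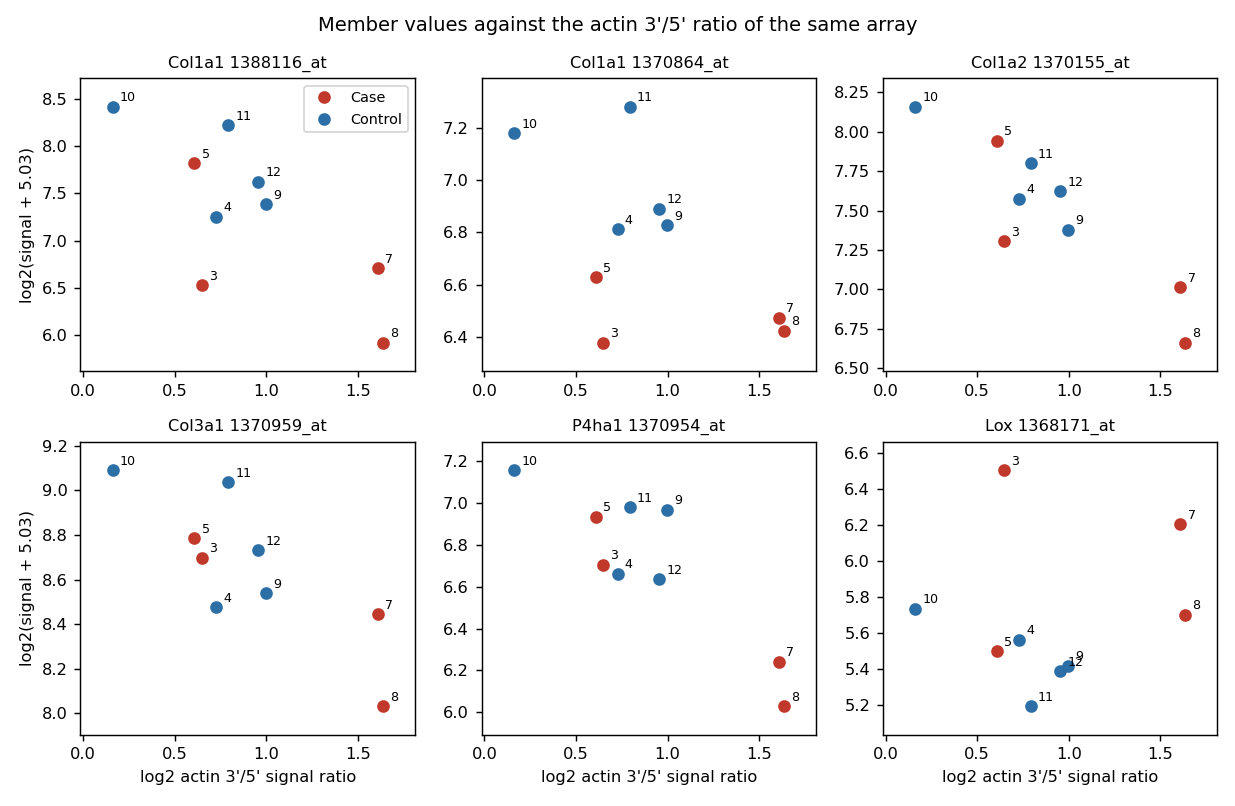
Log2(signal + 5.03) of 6 member probe sets on each array against the log2 ratio of the 3' to the 5' actin probe set on the same array, case animals in red and control animals in blue, numbered by animal. Case animals 7 and 8 lie at the right, and are the lowest 2 for Col1a2, Col3a1 and P4ha1 but not for Lox or either Col1a1 probe set.

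The fluidics runs, inferred from recorded times, split the groups unevenly. With the run as a block 11 of the 14 differences were below 0, with a median of -0.40, against -0.03 over all tested probe sets. An unadjusted p under 0.05 was found for 4 of the 14, where 7.67% of all tested probe sets had one. Within run 1 9 of 14 differences were below 0, with a median of -0.19. Within run 2, whose single case animal was animal 8, 12 of 14 were below 0, with a median of -0.52. The array median of animal 8 was 46.8, and those of the run 2 controls were 49.1 to 51.8. The share of all tested probe sets below 0 within a run was not counted, so these counts are not particular to the members. The part of the run in the differences was not tested beyond these values.

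Genes around the fibrillar collagens were described by lists, with each gene read by its brightest probe set. No gene on any of the lists passed the threshold over all tested probe sets. Among the 7147 genes tested, 51.8% had a difference below 0, with a median of -0.01, and at an unadjusted p under 0.05 2.83% were lower and 2.97% higher. Of 13 other collagen chains tested, 12 had differences below 0, with a median of -0.16, and 1 had an unadjusted p under 0.05. That one was Col4a4, a chain of glomerular basement membrane collagen, which averaged 31.3 ± 5.33 in the case group and 43.8 ± 6.15 in the control group (SD, n = 4 and n = 5), a log2 difference of -0.43 ± 0.17 (SE). Its case mean lay below the brightness filter, a signal near 33.3, so Col4a4 was tested only through its higher control signals. Col18a1 and Col15a1, collagens of basement membrane zones, each differed by -0.27 ± 0.18 at their brightest probe sets. A dimmer tested probe set of Col18a1 differed the other way, by 0.20 ± 0.15.

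Enzymes and helpers of collagen folding gave smaller differences. Of 15 tested, 9 were below 0, with a median of -0.10 and 0 at an unadjusted p under 0.05 by limma. Crtap, a partner of prolyl 3-hydroxylase, differed by -0.43 ± 0.22 (SE), Plod2, a lysyl hydroxylase, by -0.21 ± 0.16, and Mia3, which loads procollagen into transport carriers, by 0.30 ± 0.16. Fibril-associated matrix genes had 9 of 14 below 0, with a median of -0.12. The one with an unadjusted p under 0.05 was higher, Ccn2, a secreted matricellular protein, which averaged 352 ± 140 in the case group and 232 ± 57.3 in the control group (SD, n = 4 and n = 5), a difference of 0.54 ± 0.25 (SE). Spp1, which encodes osteopontin, differed by -0.59 ± 0.29, and Fbn1, which encodes the microfibril protein fibrillin, by -0.34 ± 0.16.

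Proteases that break collagen down, with their inhibitors, centred near 0, at a median of -0.01 with 6 of 9 tested genes below 0 and 0 at an unadjusted p under 0.05 by limma at the brightest probe set. Mmp14, a membrane-bound collagenase, differed by -0.56 ± 0.29 (SE), Plau, the urokinase plasminogen activator, by -0.32 ± 0.17 and, at a dimmer probe set, by -0.70 ± 0.24, and Mmp2, a gelatinase, by -0.22 ± 0.15. In the TGF-beta pathway, a main inducer of collagen genes, 9 of 12 genes were below 0, with a median of -0.06. One had an unadjusted p under 0.05, Tgfbr3, the co-receptor betaglycan, which averaged 68.9 ± 11.3 in the case group and 110 ± 30.8 in the control group (SD, n = 4 and n = 5), a log2 difference of -0.61 ± 0.19 (SE, limma adjusted p = 0.644). Smad7, an inhibitor of the pathway, differed by -0.32 ± 0.18, and Smad2, one of its transducers, by 0.26 ± 0.15.

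Heat shock and chaperone genes had a median of -0.28 over 12 tested genes, 10 of them below 0, where control animal 10 held most of the highest signals. Of the 12, 3 were lower and 1 higher at an unadjusted p under 0.05, Hsph1 among the lower. Hspa4 differed by -0.40 ± 0.15 (SE) and Hspa5, the endoplasmic reticulum chaperone BiP, by -0.31 ± 0.13, while Bag3 was higher by 0.27 ± 0.11. Hypoxia-inducible genes, of which P4ha1 and Lox are known as further members, had a median of 0.03 over 11 tested genes. Bnip3, a mitophagy receptor, differed by 0.54 ± 0.21 and Ankrd37 by 0.39 ± 0.24, while Ldha, lactate dehydrogenase A, differed by -0.19 ± 0.12.

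**Figure D5:**
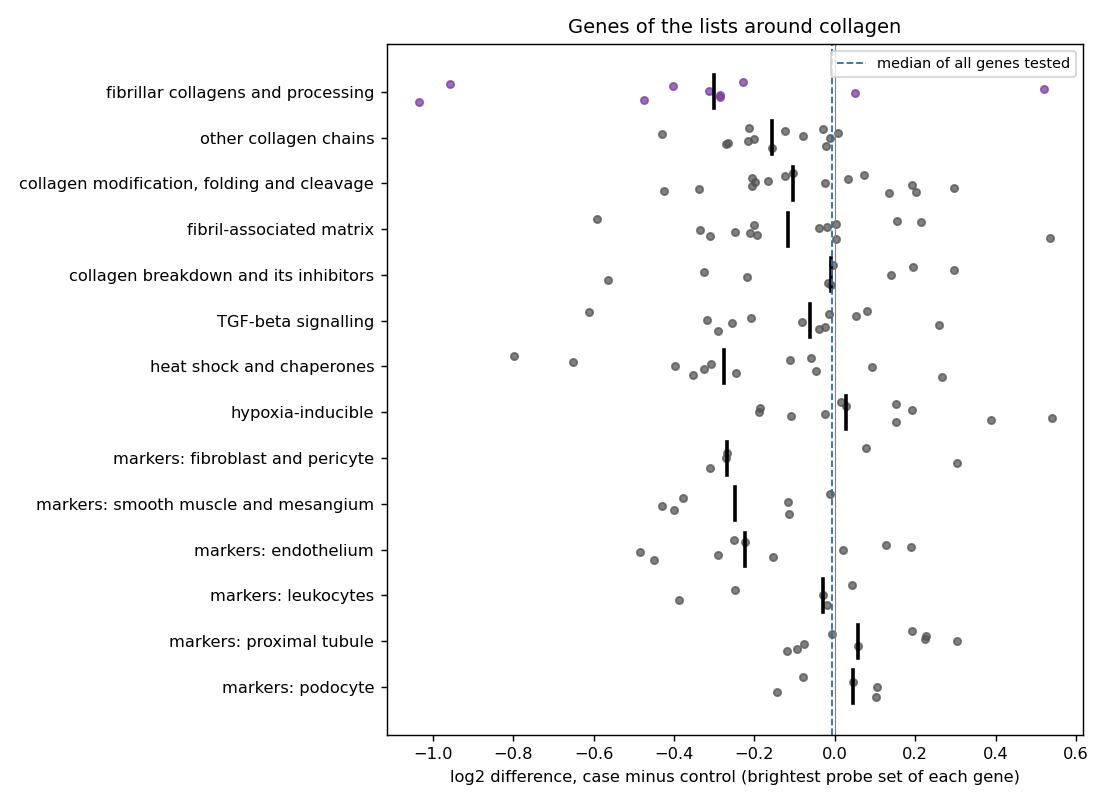
Log2 difference, case minus control, of each tested gene (brightest probe set) in the fibrillar collagen genes (purple) and in the surrounding lists and cell type marker lists (grey). Black bars give each list's median and the dashed line the median of all tested genes, and the collagen genes have a median of -0.30.

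Marker lists of fibroblasts and pericytes and of smooth muscle and mesangium had medians below 0, on few tested genes each. Of 11 fibroblast and pericyte markers 5 were bright enough to be tested, and 3 of these lay below 0, where 51.8% of all genes tested did. The 5 had a median of -0.27 and a summed signal of 617 to 1014 in case and 690 to 1043 in control animals. Vim, among these 5, differed by 0.08 ± 0.21 (SE). Dcn, which encodes the collagen-binding proteoglycan decorin, differed by -0.31 ± 0.27 (SE), Pdgfrb, the PDGF receptor of pericytes, by -0.27 ± 0.20 and Nt5e by 0.30 ± 0.13, the one tested marker of this list with an unadjusted p under 0.05, higher in case animals. The 6 tested of 9 smooth muscle and mesangial markers all lay below 0, with a median of -0.25 and sums of 345 to 424 in case and 406 to 487 in control animals. Those with an unadjusted p under 0.05 were Myh11, smooth muscle myosin, at -0.43 ± 0.14 (SE), and Rgs5, a regulator of G protein signalling in pericytes, at -0.38 ± 0.18. The case mean of Rgs5, 29.6, lay below the filter signal near 33.3, so Rgs5 was tested only through its higher control signals. The 9 tested of 11 endothelial markers had a median of -0.22, with sums of 982 to 1360 in case and 1128 to 1367 in control animals. Of these 9, 6 lay below 0, while Kdr, Pecam1 and Flt1 lay above it, at 0.19, 0.13 and 0.02. Esam, an endothelial adhesion molecule, differed by -0.48 ± 0.19 and Egfl7, a secreted vessel factor, by -0.45 ± 0.18, both at an unadjusted p under 0.05. The other tested Egfl7 probe set differed by -0.17 ± 0.17. The 5 tested of 11 leukocyte markers had a median of -0.03, with sums of 1680 to 2651 and 1773 to 3188 in case and control animals. Podocyte and proximal tubule markers had medians of 0.04 over 5 genes and 0.06 over 9 genes. Of 6 adipose and capsule markers 5 were on the array with a symbol of their own, and 0 were bright enough to be tested, and no marker on these lists that the array measures was at 0 on any array. The part of these markers in the collagen values was not tested.

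Adjusting these lists for the actin ratio brought most medians nearer to 0. The median was then -0.04 over the other collagen chains, with 9 of 13 below 0, 0.04 over the folding genes and 0.02 over the fibril-associated matrix genes. Mmp14 differed by -0.23, Col15a1 by -0.06, and Col18a1 at its brightest probe set by -0.10. The fibroblast and pericyte markers had a median of -0.01, with Dcn at -0.01, Pdgfrb at -0.09 and Nt5e at 0.23. Smooth muscle and mesangial markers had a median of -0.16, with 4 of 6 below 0. Myh11 stood at -0.52 and Rgs5, which passed the filter through its control signals, at -0.47. Endothelial markers had a median of -0.12 and heat shock genes of -0.23. In the TGF-beta pathway the median was farther from 0, at -0.16, with 10 of 12 genes below 0, and over all tested genes it stayed at -0.01. Medians farther from 0 were also found for proximal tubule markers, at 0.13, and podocyte markers, at -0.08. That of the leukocyte markers stayed at -0.03.

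The genes whose values were most like Col1a1 were found by the correlation with its brighter probe set, 1388116_at, after each group was centred on its own mean, over the 9 arrays and 8074 other probe sets with 1 symbol. The first was Tnfsf12, which encodes the cytokine TWEAK, with a Pearson correlation of 0.96, and it was followed by Atxn7l3b, Ginm1, Wdr26, Map3k1 and Tpm3, at 0.95 to 0.94. The other Col1a1 probe set, 1370864_at, correlated with it at 0.80, below all of these, so the ranking describes 1388116_at. None of these 6 encodes a collagen or a collagen-modifying protein, and the part of RNA quality in these values was not tested. Col1a2 at 1370155_at came seventh, at 0.93, Col3a1 came at rank 24, at 0.88, and P4ha1 at rank 92, at 0.80. Serpinh1 was at rank 560, at 0.57. Lox was at -0.25, and Col5a1 at -0.20, so within groups these had no positive correlation with it.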

How the data were processed

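RNA of each rat's kidney was read on 1 RAE230A array (Affymetrix), the type named in the deposited file headers. The authors deposited 1 linear intensity for every probe set of an array. They had scaled the arrays to a common level, as the mean without the top and bottom 2% of values lay at 100.02 or 100.03 throughout. The summarisation of probes is not given in the sources used here. Instrument records, deposited as other text, gave a hybridization time for each array, all on 1 day. From these times 3 fluidics runs were inferred, a new run starting where successive times lay at least 10 minutes apart. Array medians were 45.2 to 50.6 in case and 49.1 to 55.6 in control animals, and pairwise correlations of log2 values 0.93 to 0.97.

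Of 15866 probe sets other than controls, 12783 had 1 symbol, 312 several and 2771 none, and 12748 matched RefSeq (GRCr8) by Entrez ID. Values were log2(signal + 5.03), the pseudocount being 10% of the median, without further normalization. The 9519 probe sets above the 40th percentile of mean value (a signal near 33.3) were tested in R 4.3.3 with limma 3.58.1 (lmFit, eBayes with an intensity trend, 2-sided, Benjamini-Hochberg over all 9519, threshold 0.05). The steps were tested on simulated data. Exact permutation used every way of choosing 4 of 9 animals. Labels number the animals and give no pairing, and the number of animals limits precision. Named genes were all members, up to 3 of each list by smallest p, and the 6 most like Col1a1. The members and lists were chosen with earlier results of these data known. Hsph1, Hspa1a, Dnajb1, Vim, Kdr, Pecam1 and Flt1 were named after their values were seen. Tables and figures used Python 3.11.15, NumPy 2.4.6, pandas 2.3.3 and matplotlib 3.10.9.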

Additional observations from a re-analysis of the deposited data

Results flagged for a closer look

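A sample lay far from the others of its group, by Dixon's criterion on log2 values, in 4 of the 34 groups checked (17 probe sets in case and control animals), and chance alone flags about 1 group in 20. Case animal 5 had a Serpinh1 signal of 211.8 at 1371310_s_at, above the other case animals at 120.7 to 131. Control animal 10 had a Serpinh1 signal of 748.4 at the same probe set, where the next control had 270.4. Case animal 7 had a Col5a2 signal of 182.5 at 1373463_at, where the next case animal had 124.5. Control animal 9 had a Col1a2 signal of 108.8 at 1387854_at, where the next control had 164, although its signal of 161.3 at the other Col1a2 probe set was close to the next control's 185.7.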

How the results depend on the processing

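The 14 member differences were recomputed under 10 planned settings, 2 added after seeing the data (Gapdh ratio, without case animals 7 and 8), within runs 1 and 2, by exact permutation and without each animal. Of 335 values 322 kept their sign. The changes of filter, the fit without an intensity trend and exact permutation leave the difference itself unchanged, so their values could not reverse. Both Col1a1 probe sets, both Col1a2 probe sets, Col5a1, Serpinh1, P4ha1 and Lox kept theirs in every setting run. The 13 reversals all concerned differences of 0.31 or less, and the cause was not tested. Within run 1 they were Col3a1 (0.17), Col5a2 at 1370895_at (0.036), Fn1 (0.025) and Sparc at 1367562_at (-0.34). Sparc at 1367563_at was 0.011 with the actin ratio and 0.12 without case animals 7 and 8. Col5a2 at 1373463_at was -0.0020 with array weights, -0.085 with the actin ratio, -0.097 with the Gapdh ratio, -0.11 without case animals 7 and 8 and -0.12 within run 2, and ran from -0.092 (without case animal 7) to 0.11 when single animals were left out, with -0.0087 without control animal 10. The 1 value past the threshold was Col1a1 at 1388116_at without case animal 5, where leaving out single animals gave -1.39 to -0.76. Over all probe sets the count past the threshold was 0, and 1 with a pseudocount of 50% of the median, without a filter or with median centring, and 0 to 53 when single animals were left out, with 53 without case animal 5. At an unadjusted p under 0.05 there were 637. By exact permutation 1 of the 14 member probe sets had an unadjusted p under 0.05, Col1a1 at 1370864_at. Dim signals limit Lox, Col5a1 at 1369955_at and Serpinh1 at 1369009_at. No paired analysis was possible because the animals' numbers are not shared between the groups.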
